A study of Mus musculus with 16 samples.

Results

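The genes of fast skeletal muscle fibres were followed in the thoracic mammary gland of mice housed alone or in groups. The set holds 10 genes, Myh1, Myh2, Myh4, Actn3, Tnnc2, Tnni2, Tnnt3, Mylpf, Atp2a1 and Pvalb, chosen by symbol for their role in fast fibres, by a rule that uses no value of these arrays although earlier results were known. All 10 were found, on 15 of 45101 probe sets, and they are 10 of the 18193 genes tested. A probe set is a group of short oligonucleotides on an Affymetrix array that reports on a transcript.

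All mice were FVB/N females homozygous for SV40 large Tag under C3(1), a promoter fragment of a rat gene for prostatic steroid binding protein, so the group-housed controls carry the tumour-causing transgene too and no group lacked it. The 4 groups, with 4 arrays each, were grouped mice at 15 weeks, isolated mice at 15 weeks, grouped mice at 20 weeks and isolated mice at 20 weeks. Mice entered their housing soon after weaning and were killed at the same hour of the dark phase, in estrus. RNA came from the whole frozen gland, and arrays are numbered within a group without a statement that each is another mouse, so a p-value here reflects the spread among samples, which may be technical in part. The comparisons ask whether housing alters gland expression at each age.

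Muscle contracts when myosin heavy chains in the thick filament pull on actin in the thin filament, and calcium bound by troponin on the thin filament switches the process on. Fast fibres use their own versions of these proteins: type IIA, IIX and IIB fibres are named for the heavy chains encoded by Myh2, Myh1 and Myh4, and type IIA fibres are the more oxidative and IIB the more glycolytic of them. The thoracic glands of the mouse lie against the muscles of the chest wall, and the sources used here do not say how much of that muscle was taken with a gland. In whole-tissue RNA, fewer muscle fibres in a sample and less RNA per fibre cannot be told apart.

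The 3 heavy chain genes lie next to each other in the order Myh3, Myh2, Myh1, Myh4, Myh8. Their promoters are shown as a description of neighbours that share sequence before their starts. Whether this sequence bears on the levels below was not tested. The stretches below run from 250 bases before to 50 bases after the annotated start in RefSeq (GRCm38.p6), 5′ to 3′, at chr11:67170777-67171076 for Myh2, chr11:67199852-67200151 for Myh1 and chr11:67237562-67237861 for Myh4, all on the + strand. Capitals mark a 20-base run that all 3 share and, after it, the letters TATAAA.
Myh2: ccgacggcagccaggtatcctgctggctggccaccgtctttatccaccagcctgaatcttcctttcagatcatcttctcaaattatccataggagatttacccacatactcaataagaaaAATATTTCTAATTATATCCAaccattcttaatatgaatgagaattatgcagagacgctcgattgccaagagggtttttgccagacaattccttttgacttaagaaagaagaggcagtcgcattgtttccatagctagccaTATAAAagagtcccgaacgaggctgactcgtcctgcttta
Myh1: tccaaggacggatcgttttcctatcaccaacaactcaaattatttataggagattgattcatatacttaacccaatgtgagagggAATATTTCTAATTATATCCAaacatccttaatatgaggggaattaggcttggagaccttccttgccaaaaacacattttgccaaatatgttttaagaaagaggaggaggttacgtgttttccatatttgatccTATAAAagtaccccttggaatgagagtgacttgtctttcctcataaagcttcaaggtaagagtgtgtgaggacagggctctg
Myh4: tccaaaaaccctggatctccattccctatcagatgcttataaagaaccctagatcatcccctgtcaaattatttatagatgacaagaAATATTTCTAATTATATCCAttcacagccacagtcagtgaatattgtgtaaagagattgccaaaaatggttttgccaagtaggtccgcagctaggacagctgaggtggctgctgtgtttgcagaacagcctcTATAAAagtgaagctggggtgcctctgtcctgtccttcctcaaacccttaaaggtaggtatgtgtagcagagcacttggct
The shared run begins at position -130 in Myh2, -165 in Myh1 and -163 in Myh4, counted from the annotated start, and among 32851 promoters of that table it was found in these 3 genes and in 0 others. The TATAAA in capitals begins at -32 in Myh1 and -31 in Myh4, whereas in Myh2 it begins at 11, after the annotated start. Promoters of 7 of the 10 genes were in the table, 8 in all, since Pvalb had 2, and those of Actn3, Tnni2 and Tnnt3 were not. An E-box (CANNTG, either strand), a motif bound by muscle regulatory factors among others, was present in 5 of the 8, compared with 72.3% of all promoters of the same length. TATAAA (either strand) was present in 3 of the 8, compared with 13.6% of all. Its matches can overlap those of the MEF2 consensus, named for a factor of muscle genes, which was present in 3 of the 8, against 3.19% of all, and the CArG box, named for serum response factor, in 1 of the 8, against 1.63%. These matches describe letters only.

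Values are log2 levels made with the RMA method, so equal differences are equal fold changes, and levels of different genes are not set against each other because probe sets differ in brightness. The tested probe sets of 9 genes stood at or above the 95.49th percentile of every array, and Myh2 (probe set 1425153_at) ranged from the 79.78th to the 98.14th. The brightest probe set of an array lay between 14.45 and 14.86 (log2), so several of these genes were measured near the top of the scale, where differences can be compressed. Whether this narrowed their differences relative to Myh2 was not tested. Array medians lay between 8.09 and 8.11 at 15 weeks and between 8.31 and 8.34 at 20 weeks, and sorted values differed on average by 0.0262 within an age and by 0.233 across ages. The values look as if each age was normalized apart, which no label records, so age and normalization run cannot be told apart. No pair of arrays in a group held the same values, since the SD of their difference was 0.115 or more. This does not show whether a pair came from the same RNA or mouse.

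The labelled tissue was checked against marker lists. List means of markers on single arrays were 11.00 to 13.17 for white fat and 11.36 to 11.96 for luminal epithelium, both above the array medians, although single markers could lie lower. Mean levels of 17 measured genes common to all skeletal muscle (Ckm, Acta1, Ttn and others) were between 10.29 and 11.99. Heart muscle genes, the closest other striated muscle, had list means of 7.69 to 8.29, and muscle progenitor and developmental genes had 7.22 to 7.91, with 3 of 9 below the lower quartile of every array. These list means rest on different probe sets, so they are given as values and are not ranked.

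Isolated mice at 20 weeks had the lowest group mean for all 10 genes. The mean of the 10 genes on an array was 13.40 ± 0.21 (SD, n = 4) in grouped and 13.58 ± 0.23 in isolated mice at 15 weeks, and 13.58 ± 0.31 in grouped and 12.97 ± 0.41 in isolated mice at 20 weeks. Neighbours among the 3 upper groups lay within their spread for every gene but Myh2.

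**Figure D1:**
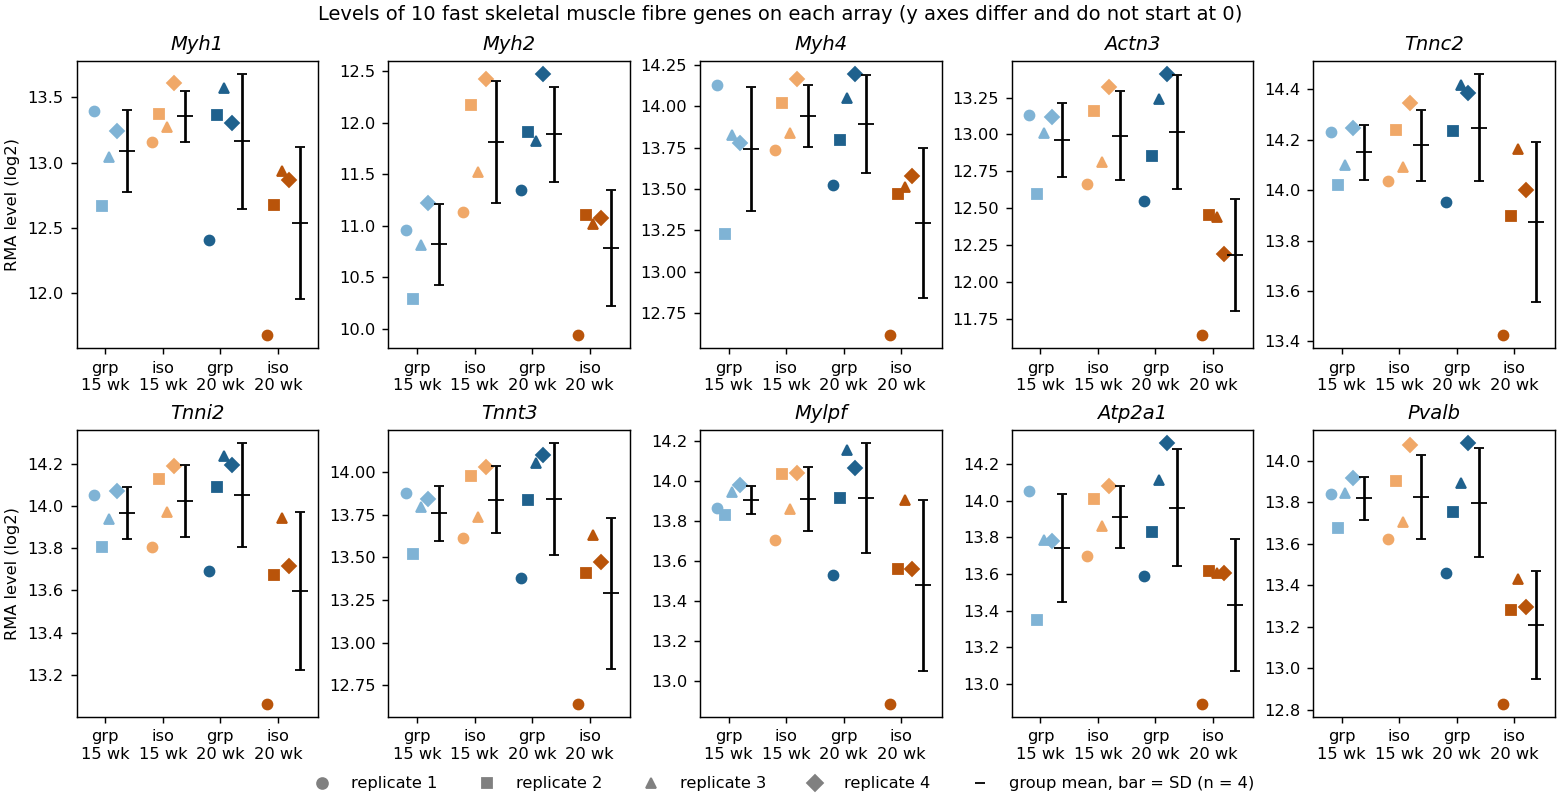
RMA level (log2, y axis) of each of the 10 genes on each of 16 arrays by group (x axis), with 1 symbol per replicate number and the group mean ± SD (n = 4) as a black bar. The isolated group at 20 weeks has the lowest mean in every panel, and Myh2 has 2 high groups, isolated at 15 weeks and grouped at 20 weeks.

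Myh2 encodes the myosin heavy chain of type IIA fibres. Its level was 10.96, 10.29, 10.81 and 11.22 in grouped mice at 15 weeks (replicates 1 to 4) and 11.14, 12.17, 11.52 and 12.42 in isolated mice at 15 weeks. It was 11.35, 11.91, 11.82 and 12.47 in grouped mice at 20 weeks and 9.94, 11.11, 11.02 and 11.07 in isolated mice at 20 weeks. At 15 weeks 3 of the 4 isolated arrays lay above every grouped array, and at 20 weeks all isolated arrays lay below all grouped ones. Group means were 10.82 ± 0.39, 11.81 ± 0.59, 11.89 ± 0.46 and 10.78 ± 0.56 (SD, n = 4) in that order, so the 2 high groups differed by less than their spread, as did the 2 low ones.

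Myh1 (1427520_a_at), the heavy chain of type IIX fibres, had levels of 13.39, 12.67, 13.04 and 13.24 in grouped and 13.16, 13.37, 13.27 and 13.61 in isolated mice at 15 weeks. At 20 weeks its levels were 12.41, 13.36, 13.57 and 13.31 in grouped and 11.68, 12.68, 12.94 and 12.86 in isolated mice. The groups overlapped at both ages, at 20 weeks because grouped replicate 1 was lower than 3 of the isolated arrays. A second probe set of Myh1 (1427868_x_at) gave a housing difference of the same sign at each age, 0.43 and -0.78 (log2), while another (1452465_at) was dim, at 7.16 to 7.60, and is not read here.

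Myh4 (1427026_at) encodes the heavy chain of type IIB fibres. Its levels were 14.13, 13.23, 13.83 and 13.78 in grouped and 13.74, 14.02, 13.84 and 14.17 in isolated mice at 15 weeks, and 13.52, 13.80, 14.05 and 14.19 in grouped and 12.62, 13.47, 13.51 and 13.58 in isolated mice at 20 weeks. At 20 weeks 3 of the isolated arrays were below all the grouped ones, and replicate 4 was above grouped replicate 1 alone. The second Myh4 probe set (1458368_at) differed by -0.70 between housings at 20 weeks. Because the heavy chain genes are close copies of each other, cross-hybridization between their probe sets, the _x_at set above all, cannot be told from expression.

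The thin filament genes and their anchor shared with the heavy chains the lowest group, isolated mice at 20 weeks. Actn3 encodes alpha-actinin 3, which ties thin filaments to the Z disc in fast glycolytic fibres. Its level (1418677_at) was 13.13, 12.60, 13.01 and 13.12 in grouped and 12.67, 13.16, 12.82 and 13.32 in isolated mice at 15 weeks, and 12.55, 12.86, 13.24 and 13.41 in grouped and 11.64, 12.45, 12.44 and 12.19 in isolated mice at 20 weeks. The housings were mixed at 15 weeks and did not overlap at 20 weeks.

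The fast troponin genes encode the calcium-binding (Tnnc2), inhibitory (Tnni2) and tropomyosin-binding (Tnnt3) subunits. Tnnc2 (1417464_at) lay between 13.95 and 14.42 on the 12 arrays of the other groups and at 13.43, 13.90, 14.16 and 14.00 in isolated mice at 20 weeks. Tnni2 (1416889_at) had a mean of 14.05 ± 0.25 in grouped and 13.60 ± 0.38 in isolated mice at 20 weeks (SD, n = 4), and Tnnt3 (1450118_a_at) had 13.84 ± 0.33 and 13.29 ± 0.44. In all 3 the housings overlapped at 20 weeks through grouped replicate 1, the lowest grouped array. A bright second Tnni2 probe set (1438609_x_at) differed by -0.46 between housings at 20 weeks, against -0.45 for the first. Tnni2 and Tnnt3 are near neighbours in the genome with Lsp1 between them.

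Mylpf (1448371_at), the regulatory light chain of fast myosin, had levels of 13.53, 13.92, 14.15 and 14.06 in grouped and 12.89, 13.56, 13.91 and 13.56 in isolated mice at 20 weeks. Grouped replicate 1 was below 3 of the isolated arrays, so the groups overlapped, and isolated replicate 3 was barely below grouped replicate 2. Its 15-week arrays lay close together, from 13.71 to 14.04.

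The calcium-handling genes followed. Atp2a1 (1419312_at) encodes SERCA1, the pump that returns calcium to the sarcoplasmic reticulum of fast fibres, and Pvalb (1417653_at) encodes parvalbumin, a calcium buffer that speeds relaxation. Atp2a1 was 13.59, 13.83, 14.11 and 14.32 in grouped and 12.89, 13.62, 13.61 and 13.61 in isolated mice at 20 weeks, where only grouped replicate 1 lay within the isolated range. Pvalb was 13.46, 13.75, 13.89 and 14.09 in grouped and 12.83, 13.28, 13.43 and 13.29 in isolated mice at 20 weeks, without overlap but with grouped replicate 1 barely above isolated replicate 3. At 15 weeks Pvalb lay between 13.62 and 14.07 over both housings.

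At 15 weeks Myh2 had a housing difference of 0.99 and the other 9 genes had 0.27 or less, and none passed the test. Differences between groups were tested with limma across all 18193 genes, with Benjamini-Hochberg adjusted p under 0.05 as the threshold for calling a gene. The threshold was passed by 0 of the 10 genes, compared with 0.044% of all genes, and 1 of 10 had an unadjusted p under 0.05, compared with 9.7% of all genes. The median difference (isolated minus grouped) of the 10 was 0.07, against -0.0093 over all genes, and all 10 differences were positive, although 5 of them were 0.06 or less. Over the alternatives that median ran from 0.0015, without grouped replicate 2, to 0.23 with the actin 3′ to 5′ covariate, and it was 0.16 after quantile normalization and 0.013 with the Gapdh covariate. Myh2 had the largest of the 10, 0.99 ± 0.27 (SE), a 1.98-fold higher mean level in isolated mice, with an adjusted p of 0.33 (limma). With the actin covariate its adjusted p was 0.0181, where 0.154% of all genes were called, and with array weights it was 0.0374, where 2.72% were called, in place of 0.044%. Over the alternatives its adjusted p lay between 0.0181 and 1.0. Myh1 differed by 0.27 ± 0.15, Myh4 by 0.20 ± 0.17 and Atp2a1 by 0.17 ± 0.14, and the other 6 by 0.0073 to 0.08. None of the 10 was higher in every isolated array than in every grouped array, against 2.31% of all genes.

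At 20 weeks the mean of every fast fibre gene was lower in isolated mice, by 1.3-fold (Tnnc2) to 2.15-fold (Myh2), but no difference passed the threshold. The median difference was -0.57 (log2), against -0.0083 over all genes. Limma called 0 of 10, compared with 0.011% of all genes, and 8 of 10 had an unadjusted p under 0.05, compared with 8.49% of all genes. Myh2 differed by -1.10 ± 0.30 (SE, adjusted p = 0.465), Actn3 by -0.83 ± 0.22 (adjusted p = 0.465) and Pvalb by -0.59 ± 0.16 (adjusted p = 0.466). Myh1 differed by -0.62 ± 0.32, Myh4 by -0.60 ± 0.23, Tnnt3 by -0.55 ± 0.23 and Atp2a1 by -0.53 ± 0.20, and Tnni2, Mylpf and Tnnc2 by -0.45, -0.44 and -0.38. Adjusted p-values of these 7 lay between 0.577 and 0.614.

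Single arrays carried much of this difference. For 3 of the 10 genes, Myh2, Actn3 and Pvalb, every isolated array at 20 weeks was below every grouped array, against 2.0% of all genes. Without grouped replicate 1 this held for all 10, against 4.16% of all genes, and without isolated replicate 4 for 4 of them. Grouped replicate 1 was the lowest grouped array for all 10, so leaving it out favours these genes. The share over all genes is therefore not a like comparison, and the 10 genes share the array. Isolated replicate 1 was the lowest of the 16 arrays in all 10 genes, and without it the median difference was -0.35 in place of -0.57, while the number of genes without overlap remained 3. No array left out gave a call at 20 weeks, and all 10 differences kept their sign.

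**Figure D2:**
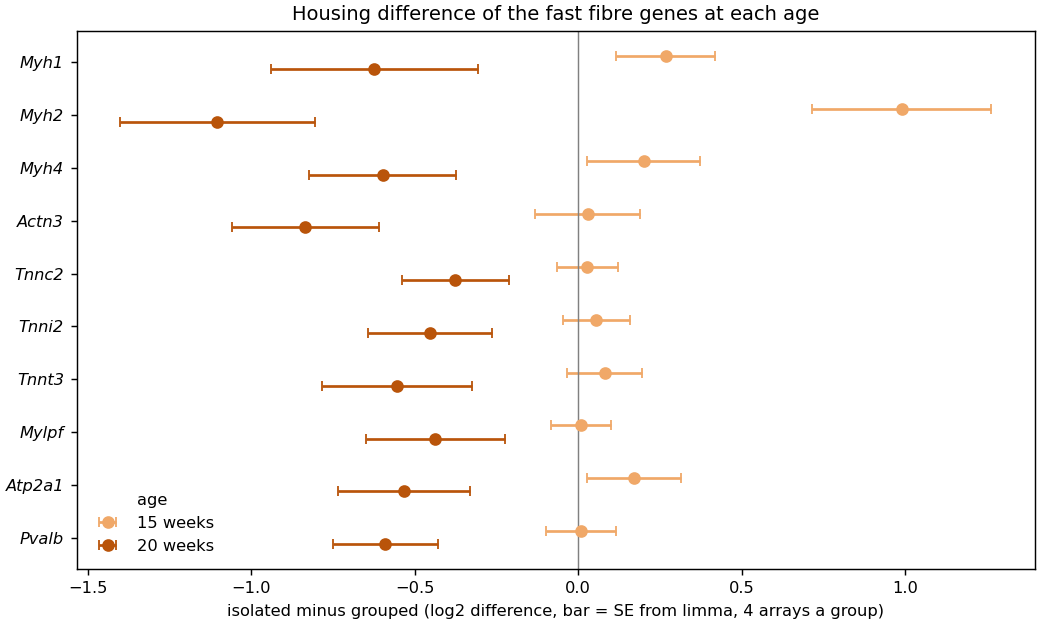
Difference in level between isolated and grouped mice (x axis, log2, isolated minus grouped) for the 10 genes (y axis) at 15 weeks (pale) and 20 weeks (dark), with bars of 1 SE from limma on 4 arrays a group. At 15 weeks 9 genes lie between 0.0073 and 0.27 with Myh2 at 0.99, and at 20 weeks all 10 lie between -1.10 and -0.38.

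The change of the housing difference between ages was tested directly on all 16 arrays. The difference at 20 weeks minus that at 15 weeks was negative for all 10 genes, with a median of -0.67 against -0.0082 over all genes. Limma called 0 of 10, compared with 0.011% of all genes, and 8 of 10 had an unadjusted p under 0.05, compared with 12.7% of all genes. Myh2 had the largest of the 10, -2.09 ± 0.45 (SE, adjusted p = 0.156, rank 27 by p among all genes). It passed the threshold with the actin covariate (adjusted p = 0.0322), with array weights (0.0178), under a replicate block (0.0399) and without isolated replicate 4 of 20 weeks (0.0457). In those fits 0.385%, 4.28%, 0.044% and 0.764% of all genes were called, in place of 0.011%. Over all alternatives its adjusted p ran from 0.0178 to 0.35. Actn3 differed by -0.86 ± 0.30 (adjusted p = 0.264) and passed with the actin covariate alone (0.0398).

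Between 15 and 20 weeks in grouped mice, Myh2 rose and the other fast fibre genes did not pass the threshold. Myh2 rose by 1.06 ± 0.24 (log2, SE, adjusted p = 0.00418, limma), or by 0.83 relative to the median of all genes, which shifted by 0.23. It was higher in every 20-week array than in every 15-week array. Of the 10 genes 1 was called higher and 0 lower, compared with 56.0% and 6.41% of all genes, and the other 9 differed by -0.02 to 0.22, each below the median shift. After quantile normalization over the 8 arrays, which removes the shift, Myh2 rose by 0.87 (adjusted p = 0.0214), 1 of 10 against 19.3% of all genes called higher, and all genes split into 3505 higher and 3517 lower in place of 10196 and 1166. With the Gapdh 3′ to 5′ difference, a measure of RNA quality, as a covariate the Myh2 call was lost (0.77, adjusted p = 0.105). That difference was -0.06 ± 0.02 in grouped mice at 15 weeks and -0.01 ± 0.03 at 20 weeks (SD, n = 4), and its part in the result was not tested further.

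In isolated mice 7 of the 10 genes fell between 15 and 20 weeks, compared with 9.33% of all genes called lower and 57.3% called higher. They were Myh2, which fell by 1.03 ± 0.33 (log2, SE, adjusted p = 0.0185), Myh1 by 0.81 ± 0.25 (0.0157), Actn3 by 0.81 ± 0.20 (0.00523), Myh4 by 0.65 ± 0.20 (0.0179), Pvalb by 0.62 ± 0.14 (0.00392), Tnnt3 by 0.55 ± 0.20 (0.0334) and Atp2a1 by 0.48 ± 0.17 (0.0281). Mylpf, Tnni2 and Tnnc2 differed by -0.43, -0.42 and -0.31 (adjusted p = 0.0678, 0.0534 and 0.098). The median of the 10 was -0.58, against 0.24 over all genes. After quantile normalization all 10 fell, compared with 25.8% of all genes, which then split into 4490 higher and 4686 lower in place of 10422 and 1697. Without isolated replicate 2 or replicate 4 of 15 weeks, the arrays with the highest levels of that group, 4 and 3 of the 10 were called. A fall with age was not particular to muscle lists. After quantile normalization 8 of 8 white fat markers (median -1.56) and 5 of 7 brown fat markers (-1.51) were called lower, against a median of -0.68 for the 10 genes. Of 9 luminal markers 3 were called lower and 4 higher, and of 8 macrophage markers 0 and 3. In grouped mice 8 of 8 white fat markers were called lower too (-0.73).

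The grouped and isolated age differences and the housing differences draw on the same arrays, so the low levels of isolated mice at 20 weeks enter several of them. The arrays of a group were spread in a common order. Grouped replicate 2 and isolated replicate 1 at 15 weeks, and replicate 1 of both housings at 20 weeks, were the lowest array of their group for all 10 genes, and isolated replicate 4 at 15 weeks was the highest for all 10. As a description, the deviation of a gene from its group mean correlated with the mean deviation of the other 9 with Pearson's r of 0.89 (Myh2) to 0.99 (Tnnt3) over 16 arrays, with a median of 0.95. It was 0.80 to 0.995 over the 8 arrays of 15 weeks, 0.92 to 0.997 over the 8 of 20 weeks, and 0.83 to 0.98 over 15 arrays without isolated replicate 1 of 20 weeks. The points share arrays and their normalization.

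**Figure D3:**
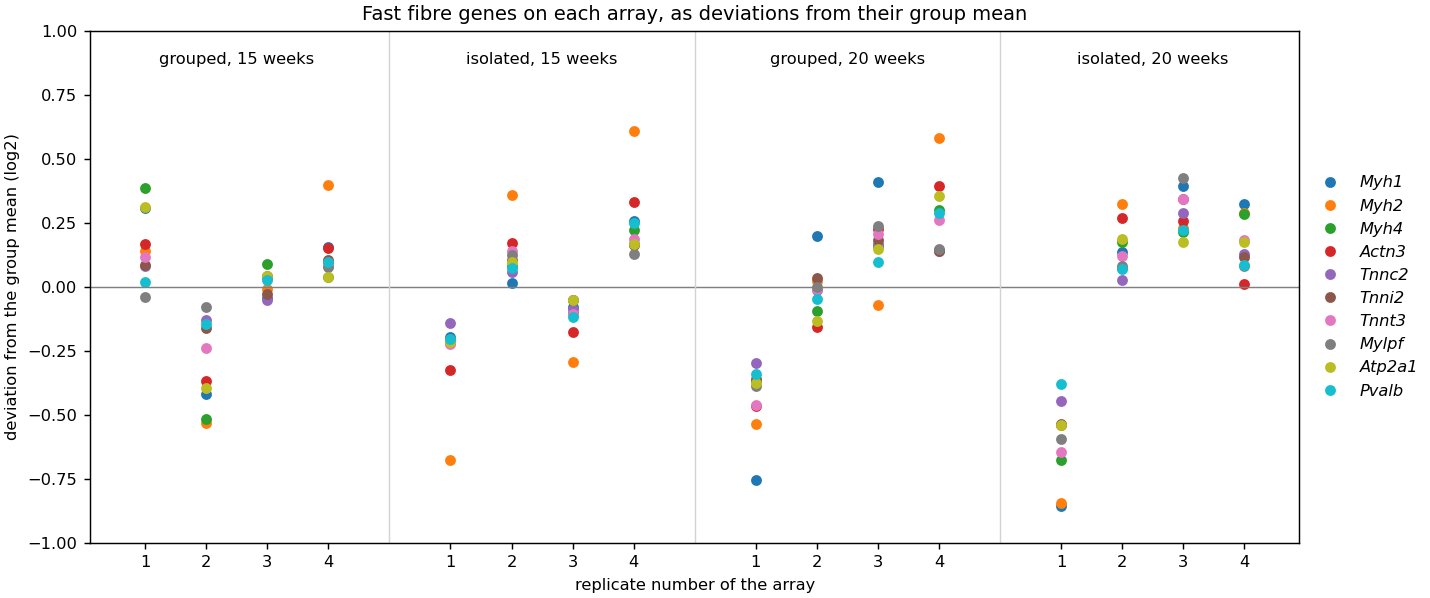
Deviation of each of the 10 genes (colours) from its group mean (y axis, log2) on each array, by group and replicate number (x axis). The genes lie together on most arrays, all 10 below their group mean on the lowest array of each group, and Myh2 stands farthest out on isolated replicates 1 and 4 of 15 weeks.

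The genes with the most similar pattern outside the set were named by the same measure over 16 arrays. They were Ckm (muscle creatine kinase, r = 0.99), Eno3 (muscle enolase, 0.99), Synpo2 (0.98), Slc25a4 (the muscle form of the mitochondrial ADP/ATP carrier, 0.98), Pgam2 (muscle phosphoglycerate mutase, 0.98), Cmya5 (0.98), Myot (myotilin of the Z disc, 0.98), Scn4b (a sodium channel subunit, 0.98), Srl (sarcalumenin of the sarcoplasmic reticulum, 0.98) and Epdr1 (0.98). Their housing differences were 0.06 to 0.45 at 15 weeks and -0.83 to -0.35 at 20 weeks, and 0 of the 10 were called at either age.

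Myh2 differed from the other fast fibre genes when they were set against each other on the same array. Its level minus the mean of the other 9 was -2.86 ± 0.23 in grouped and -1.96 ± 0.40 in isolated mice at 15 weeks, and -1.88 ± 0.26 in grouped and -2.43 ± 0.21 in isolated mice at 20 weeks (log2, SD, n = 4). The size of such a difference depends on the probes, and only its change between groups is read. It was -3.12 to -2.55 in grouped and -2.42 to -1.56 in isolated mice at 15 weeks, without overlap, and -2.15 to -1.54 and -2.69 to -2.23 at 20 weeks, again without overlap. Set against the mean of the 10 in the same way, 0.066% of the 18183 other genes were higher in every isolated array at 15 weeks and 0.022% were lower in every isolated array at 20 weeks. The mean of the 10 was itself 13.40 in grouped and 13.58 in isolated mice at 15 weeks, and 13.58 and 12.97 at 20 weeks. These shares depend on that shift and do not measure how unusual Myh2 was among muscle genes. The shares in the next paragraph depend on the mean of the 10 in the same way. The level of Myh2 minus that of Myh4 moved in the same directions, from -2.92 ± 0.26 to -2.13 ± 0.40 at 15 weeks, grouped before isolated, with overlap. At 20 weeks it moved from -2.0 ± 0.24 to -2.51 ± 0.13, without overlap. Against its direct neighbour Myh1, Myh2 moved from -2.26 ± 0.18 to -1.54 ± 0.41 at 15 weeks. At 20 weeks that difference moved from -1.28 ± 0.41 to -1.76 ± 0.15, and the housings overlapped at both ages. Myh1 minus Myh4, by contrast, had means between -0.75 and -0.59 in the 4 groups.

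Other genes moved less against the rest. For each of them the other 9 include Myh2, so the higher Myh2 of isolated mice at 15 weeks lowers these differences. Its lower level in isolated mice at 20 weeks raises them. At 15 weeks the levels of Tnnt3 and Actn3 themselves differed by 0.08 and 0.03 (isolated minus grouped), and that of Myh2, which is averaged into the other 9, by 0.99. The lower relative level of Tnnt3 below is therefore not read as a change of Tnnt3 itself. The same differences without Myh2 among the others were not tested. Relative to the other 9, Actn3 was lower in every isolated than in every grouped array at 15 weeks, with means of -0.65 against -0.48. Tnnt3 was also lower relative to the others in every isolated array at 15 weeks, with means of 0.29 against 0.40, and 2.93% of the genes outside the set were lower against the mean of the 10 in this way. At 20 weeks Tnni2 and Mylpf were higher relative to the others in every isolated array, with means of 0.70 against 0.53 and 0.57 against 0.38, as were 13.6% of the genes outside the set. Between ages in isolated mice, Tnnc2, Tnni2 and Mylpf were higher relative to the others in every 20-week array, as were 82.6% of the genes outside the set, and Actn3 was lower in every 20-week array (-1.05 to -0.74 against -0.72 to -0.56), as were 0.577%.

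**Figure D4:**
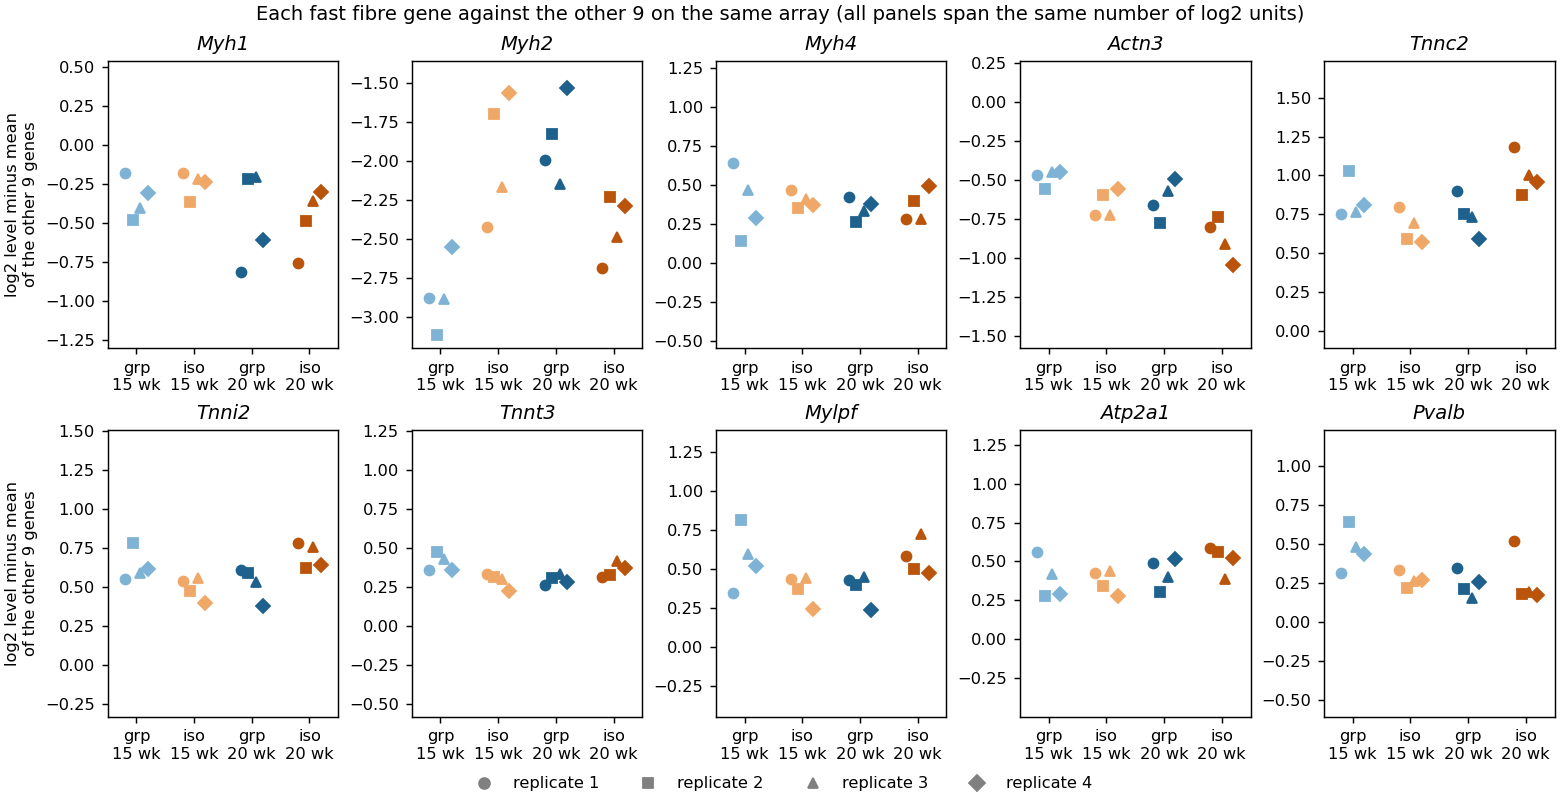
Level of each gene minus the mean level of the other 9 genes on the same array (y axis, log2, with the same span in every panel) by group (x axis), 1 symbol per array. Myh2 shows the widest spread between groups, from a mean of -2.86 in grouped to -1.96 in isolated mice at 15 weeks and from -1.88 to -2.43 at 20 weeks.

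Related muscle genes, listed by function, gave values on the same scale. Of 12 other fast fibre genes, which include enzymes of rapid energy supply (Pygm, Pfkm, Eno3) and calcium storage (Casq1), 0 were called in either housing comparison, with a median difference of 0.14 at 15 weeks and -0.64 at 20 weeks, where all 12 were negative. Pygm, muscle glycogen phosphorylase, differed by -0.75 ± 0.31 at 20 weeks (SE, adjusted p = 0.577), Casq1, calsequestrin, by -0.72 ± 0.26 (adjusted p = 0.567) and Pfkm, muscle phosphofructokinase, by -0.65 ± 0.26 (adjusted p = 0.577). At 15 weeks the smallest p-values of that list belonged to Sln (sarcolipin, a regulator of the calcium pump, 0.48 ± 0.15), Casq1 (0.26 ± 0.14) and Ampd1 (muscle AMP deaminase, 0.32 ± 0.19), with adjusted p of 0.371 to 0.587. In isolated mice 10 of these 12 fell with age, among them Pygm by 0.99 and Pfkm by 0.86, compared with 9.33% of all genes, and after quantile normalization the count was again 10, compared with 25.8%. The 10 include Gpd1, named after its values were seen, which fell by 1.41. Unlike the fast set it was also called lower in grouped mice (-0.58, adjusted p = 0.00375, limma). Of 17 measured genes common to skeletal muscle 0 were called with housing, with medians of 0.15 and -0.54. At 15 weeks the smallest p-values among them belonged to Lmod2 (leiomodin 2, which acts at thin filament ends, 0.51 ± 0.13, adjusted p = 0.303), Mybpc1 (slow myosin-binding protein C, 0.58 ± 0.21, 0.45) and Jph1 (junctophilin 1, 0.15 ± 0.06, 0.479). Tcap, a titin-binding protein of the Z disc, had the smallest p among them at 20 weeks (-0.96 ± 0.29, adjusted p = 0.524), followed by Sgca (-0.28 ± 0.09, 0.534) and Ckm (-0.47 ± 0.19, 0.577). With age in isolated mice 5 of the 17 fell, Ckm, Neb, Ryr1, Trdn and Sgca, compared with 9.33% of all genes, and 9 of 17 after quantile normalization, compared with 25.8%; Neb, Ryr1 and Trdn are named after their values were seen.

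Slow fibre genes had their highest values on some of the arrays on which Myh2 was high. The mean level of 12 slow fibre genes was 9.03, 9.22, 8.90 and 9.19 in grouped and 9.28, 10.17, 9.23 and 10.17 in isolated mice at 15 weeks, so isolated replicates 2 and 4 stood apart, and these were also the 2 highest 15-week arrays for Myh2. It was 9.80 to 10.35 in grouped and 9.22 to 9.95 in isolated mice at 20 weeks. Housing differences had a median of 0.52 at 15 weeks and -0.41 at 20 weeks, with 0 of 12 called at each age. Myh7, the slow heavy chain, differed by 1.44 ± 0.47 at 15 weeks (SE, adjusted p = 0.393) Myl2, the slow regulatory light chain, by 1.89 ± 0.58 (adjusted p = 0.382) and Myoz2, a Z disc protein, by 0.74 ± 0.22 (adjusted p = 0.363). At 20 weeks Tnnt1, slow troponin T, differed by -0.98 ± 0.38, Tnnc1 by -0.75 ± 0.30 and Myh7 by -1.0 ± 0.40, each with an adjusted p of 0.577. In grouped mice 10 of 12 rose with age and 1, Myh7b, fell, compared with 56.0% of all genes called higher and 6.41% lower. The list had a median of 0.84 against the shift of 0.23 over all genes and of 0.61 after quantile normalization, again with 10 higher and 1 lower, where 19.3% of all genes were called higher. Tnnc1, the slow and cardiac troponin C, rose by 1.84 ± 0.21 (SE, adjusted p = 0.000133) and Tnni1, slow troponin I, by 1.35 ± 0.16 (adjusted p = 0.000189), in the comparison in which Myh2 was the 1 gene of the fast set to rise. Tnni1 and Myh7b were named after their values were seen. The deviations of the slow list correlated with those of the 10 fast genes with r = 0.53 over 16 arrays, against 0.97 for the other fast genes and 0.99 for the genes common to skeletal muscle.

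Markers of other tissues had these values in the 20-week groups, and none of them passed the test with housing. White fat markers (8 of 10 measured) had list means of 12.14 to 12.49 in grouped and 11.00 to 12.23 in isolated mice, and their median housing difference was -0.81 with all 8 negative and 0 called. Brown fat markers (7 of 8 measured) had list means of 10.31 to 11.32 in grouped mice and 8.85, 10.41, 10.82 and 11.56 in isolated mice, lowest on isolated replicate 1, the array that was also lowest for the fast fibre genes. After quantile normalization their median housing difference at 20 weeks was -0.50. Their deviations correlated with those of the 10 fast genes with r = 0.85 over the 8 arrays of 20 weeks and -0.12 over the 8 of 15 weeks. Macrophage markers (8 of 8) had list means of 9.58 to 11.07 in grouped and 10.07 to 11.12 in isolated mice, with a median difference of 0.56 at 20 weeks and -0.39 at 15 weeks, and fibroblast and matrix genes (7 of 8) had medians of 0.32 and -0.12. Luminal markers (9 of 9) had a median of -0.12 at 20 weeks, smooth muscle and myoepithelial genes (9 of 9) of -0.22, and peripheral nerve markers (4 of 7) of 0.04. No marker was called with housing at 15 weeks either, and no marker of the white fat, brown fat, macrophage, fibroblast or luminal lists was below the lower quartile of every array of a group. Over 16 arrays the correlation with the 10 fast genes was 0.72 for the brown fat list, 0.65 for smooth muscle and myoepithelium and 0.60 for nerve. It was 0.47 for fibroblasts, 0.46 for macrophages, 0.26 for white fat and 0.09 for luminal markers. The part of these tissues in the lower fast fibre levels was not tested.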

How the data were processed

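RNA of 16 mouse mammary gland samples was measured on Affymetrix arrays. The deposited values are log2 levels; per the submitters' processing notes the authors used RMA and affy, with no version named. RMA corrects background, equalises the arrays' distributions and summarises probes. The table had 0 missing values. Names came from GEO's platform annotation (34945 with 1 symbol, 932 with several, 9160 unnamed, 64 controls), and Entrez identifiers of 34741 were found in the RefSeq table of GRCm38.p6, with 0 symbols changed. Each gene was tested on its single-symbol probe set of highest mean. Groups were compared with limma 3.58.1 in R 4.3.3 (lmFit, eBayes with an intensity trend), each pair on its own 8 arrays and the interaction on 16, with Benjamini-Hochberg adjustment over all genes. The housing and interaction fits were also run on simulated data with noise drawn separately for each gene. That noise lacks the shared variation of the members, no age fit was simulated, and the outcome is not reported here. No depth exists for arrays, so their number limits the precision.

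The members and the 12 other gene lists were chosen with earlier results of these data known. All members are named; from each other list the rule took up to 3 genes with the smallest p in each housing comparison, of which those of the fast, common and slow skeletal muscle lists are printed, and the 10 genes most like the members. Eno3, Acta1 and Ttn are named as examples of a list, and called genes outside the rule are marked as named after their values were seen. Listed genes with no single-symbol probe set in the table, among them Plin1, Cfd, Cpt1b, Fbn1 and Prx, were not analysed here. Alternatives were quantile or cyclic loess normalization, a filter at the 40th percentile, another or every probe set, no trend, a robust prior, the replicate number as a block, Gapdh or actin 3′ to 5′ covariates, array weights (statmod 1.5.0), all 16 arrays in each fit and each array left out. The replicate numbers were not used to pair arrays.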

Additional observations from a re-analysis of the deposited data

Results flagged for a closer look

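In a group of 4 arrays, a lowest or highest array was marked when its gap to the nearest other, divided by the range of the group, was above 0.829 (Dixon). Of 60 groups tested, over 15 probe sets, 4 were marked, and chance marks about 1 in 20. All 4 were isolated replicate 1 at 20 weeks as the lowest array. Myh2 was 9.94 there against 11.02 to 11.11 on the other 3 arrays, Myh4 was 12.62 against 13.47 to 13.58, its second probe set was 10.84 against 11.79 to 11.93, and Atp2a1 was 12.89 against 13.61 to 13.62. Tested probe sets of the other 7 genes were also lowest on this array within the group, at gaps below the limit. The marks are not independent, since the genes share the array.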

How the results depend on the processing

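The sign of the housing difference at 20 weeks, of the age difference in isolated mice and of the interaction was the same for all 10 genes under every alternative run, with medians of -0.71 to -0.34, -0.86 to -0.38 and -0.81 to -0.50. The filter, every probe set, no trend, robust prior, replicate block and all-array settings leave the difference itself unchanged, so they cannot test its sign. Myh2 was -1.10 at 20 weeks in each. With every probe set, the tested probe sets were still the ones read. For age in isolated mice the dim Myh1 probe set (1452465_at) gave 0.043, against -0.81 for the tested one. The other untested probe sets gave -1.27 to -0.46. Signs changed where differences were small. At 15 weeks the Gapdh covariate gave -0.14 for Myh4, -0.066 for Actn3 and -0.10 for Atp2a1 (log2), and leaving out single arrays gave -0.093 to 0.14 for Actn3, -0.028 to 0.075 for Tnnc2, -0.036 to 0.076 for Mylpf and -0.0755 to 0.0756 for Pvalb. For the age difference in grouped mice, quantile normalization gave -0.015 for Actn3, -0.0034 for Tnni2 and -0.049 for Mylpf. Cyclic loess gave -0.078 for Myh1, -0.11 for Actn3, -0.0042 for Tnnc2, -0.027 for Tnni2, -0.039 for Tnnt3 and -0.11 for Mylpf. The probe set of largest variance gave -0.29 for Myh4, the Gapdh covariate -0.18 for Myh4, -0.15 for Actn3 and -0.075 for Atp2a1, and array weights 0.0049 for Pvalb. The actin covariate gave -0.18 for Myh1, -0.053 for Myh4, -0.16 for Actn3, -0.012 for Tnnc2, -0.035 for Tnni2, -0.078 for Tnnt3 and -0.11 for Mylpf. Leaving out single arrays gave -0.064 to 0.33 for Myh1, -0.021 to 0.28 for Myh4, -0.080 to 0.21 for Actn3, -0.0029 to 0.24 for Tnnt3, -0.068 to 0.14 for Mylpf and -0.12 to 0.093 for Pvalb. The cause of these changes was not tested.

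The number of genes called at 15 weeks was 1 (Myh2) in place of 0 with the actin covariate and with array weights, which called 0.154% and 2.72% of all genes in place of 0.044%. In grouped mice it was 0 in place of 1 with the Gapdh covariate, which called 39.0% of all genes higher in place of 56.0%. In isolated mice it was 3 to 10 in place of 7 when single arrays were left out, with 7.83% to 10.3% of all genes called lower. There it was 10 after quantile normalization (25.8% of all genes lower) and cyclic loess (28.4%), with the Gapdh (10.1%) and actin (10.8%) covariates and with array weights (11.7%), in place of 9.33%. For the interaction it was 2 (Myh2 and Actn3) in place of 0 with the actin covariate (0.385% of all genes), 1 with array weights (4.28%), 1 with the replicate block (0.044%) and 0 to 1 when single arrays were left out (1 without isolated replicate 4 of 20 weeks, 0.764%), in place of 0.011%. The number of genes without overlap was 0 to 1 at 15 weeks (Myh2, without grouped replicate 4 or isolated replicate 1) and 3 to 10 at 20 weeks when single arrays were left out, an alternative chosen after the data were seen.

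The replicate numbers shared between groups were not taken to pair arrays in the main fits, since no label states what a shared number marks. Same-numbered arrays deviated together in part (r = 0.10, -0.10, 0.36 and 0.36 for replicates 1 to 4 between housings at 15 weeks, and 0.42, -0.16, 0.49 and -0.10 at 20 weeks). Between housings, 3 of 4 grouped arrays at 15 weeks and 2 of 4 at 20 weeks matched best with the array of their own number. Between ages this held for 1 of 4 in grouped and 3 of 4 in isolated mice. If the numbers carried nothing, about 1 of 4 would match in each comparison. Whether same-numbered arrays share a batch was not tested. With the replicate number as a block, 0 genes were called for housing at either age, 1 for age in grouped mice and 10 for age in isolated mice. Of all genes the block called 0.0934% and 0.0165% for housing at 15 and 20 weeks, 51.7% higher and 6.43% lower in grouped mice, and 57.7% higher and 10.1% lower in isolated mice. At 20 weeks the adjusted p of Myh2 under the block was 0.0679 (limma), with an SE of 0.13 in place of 0.30.

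The number of arrays, 4 a group, limits the precision of every value. Values near the brightest of an array leave little room for higher levels, and age differences carry the normalization limit given above.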
